A study of Mus musculus with 11 samples.

Results

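Chemokines, interleukins and colony-stimulating factors were examined as 1 group of secreted signals in mouse mammary carcinoma cells that kept or lost human HER2. The members were the genes named Ccl, Cxcl or Cx3cl with a number, Il with a number, Csf1, Csf2 or Csf3, and Lif. Of 21846 genes in the table, 74 matched, and 31 of these reached at least 1 CPM (a read count scaled to library size) in at least 1 of 11 libraries. The other 43 stayed below 1 CPM in every library, 16 of them with 0 counts throughout, and included all 5 listed genes of the IL-10 family and all 6 of the IL-17 family. The members nearest to the limit were Il17c with a highest level of 0.834 CPM, just below it, and Cxcl14 with 1.10 CPM, just above it.

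The lines came from mammary tumors of virgin female FVBhuHER2 mice, which carry a human HER2 transgene. Tumor A gave MamBo89 (HER2 stable), and tumor B gave MamBo43 (HER2 labile), from which MamBo38 (HER2 loss) arose through a HER2-negative tumor grown in a mouse, so that every HER2-negative library descended from tumor B. The 5 HER2-positive libraries were untreated MamBo43, untreated MamBo89, an untreated MamBo89 library labelled AG3, and MamBo89 under each of 2 trastuzumab schedules. The 6 HER2-negative libraries were untreated MamBo38 (2), MamBo38 under each schedule, and MamBo43 under each schedule (MamBo43 TRT). Trastuzumab, an antibody to HER2, was given at 30 µg/ml either for 60 days or for 30 days followed by 30 days without it. HER2 status was taken from the study's methods, as was the reading of AG3 as a MamBo89 clone, since the sample labels give only line and treatment.

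Chemokines are small secreted proteins that bind G protein-coupled receptors and steer the migration of leukocytes. Interleukins and the colony-stimulating factors act through other receptors on the survival, growth and activation of immune cells and, in some cases, of epithelial or tumor cells. Carcinoma cells are known to secrete several of them, among them IL-6, CSF1 and CCL2, which act on macrophages and monocytes or on the tumor cells themselves.

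Library totals lay between 17040454 and 27127662 counts (median 20592201), so that 3 counts, used here as the floor of detection, were worth 0.112 to 0.179 CPM. Between 19 and 23 members reached 1 CPM in a library. The cultures held hardly any leukocyte or endothelial transcripts. Ptprc, which encodes CD45, had at most 1 count in a library, and the 5 endothelial markers summed to between 0.157 and 0.893 CPM. The 12 leukocyte markers summed to 4.32 to 50.2 CPM in HER2-negative and 1.33 to 17.1 CPM in HER2-positive libraries, most of it Cd68, a lysosomal gene that was higher in HER2-negative libraries by 1.67 ± 0.77 (log2 fold change ± SE, adjusted p = 0.0885).

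Compared per kilobase of exon, Csf1 had the highest median over the 11 libraries, 126 CPM per kb, and ranged from 8.03 to 515 CPM per kb. Cxcl1 followed with a median of 76.8 CPM per kb, Cx3cl1 with 34.1, Lif with 26.0 and Il34 with 18.5. Each of these ranges overlapped the next, so the order was that of medians only. On this scale Cxcl1 exceeded Csf1 in every HER2-positive library, and Csf1 exceeded Cxcl1 in every HER2-negative one.

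**Figure D1:**
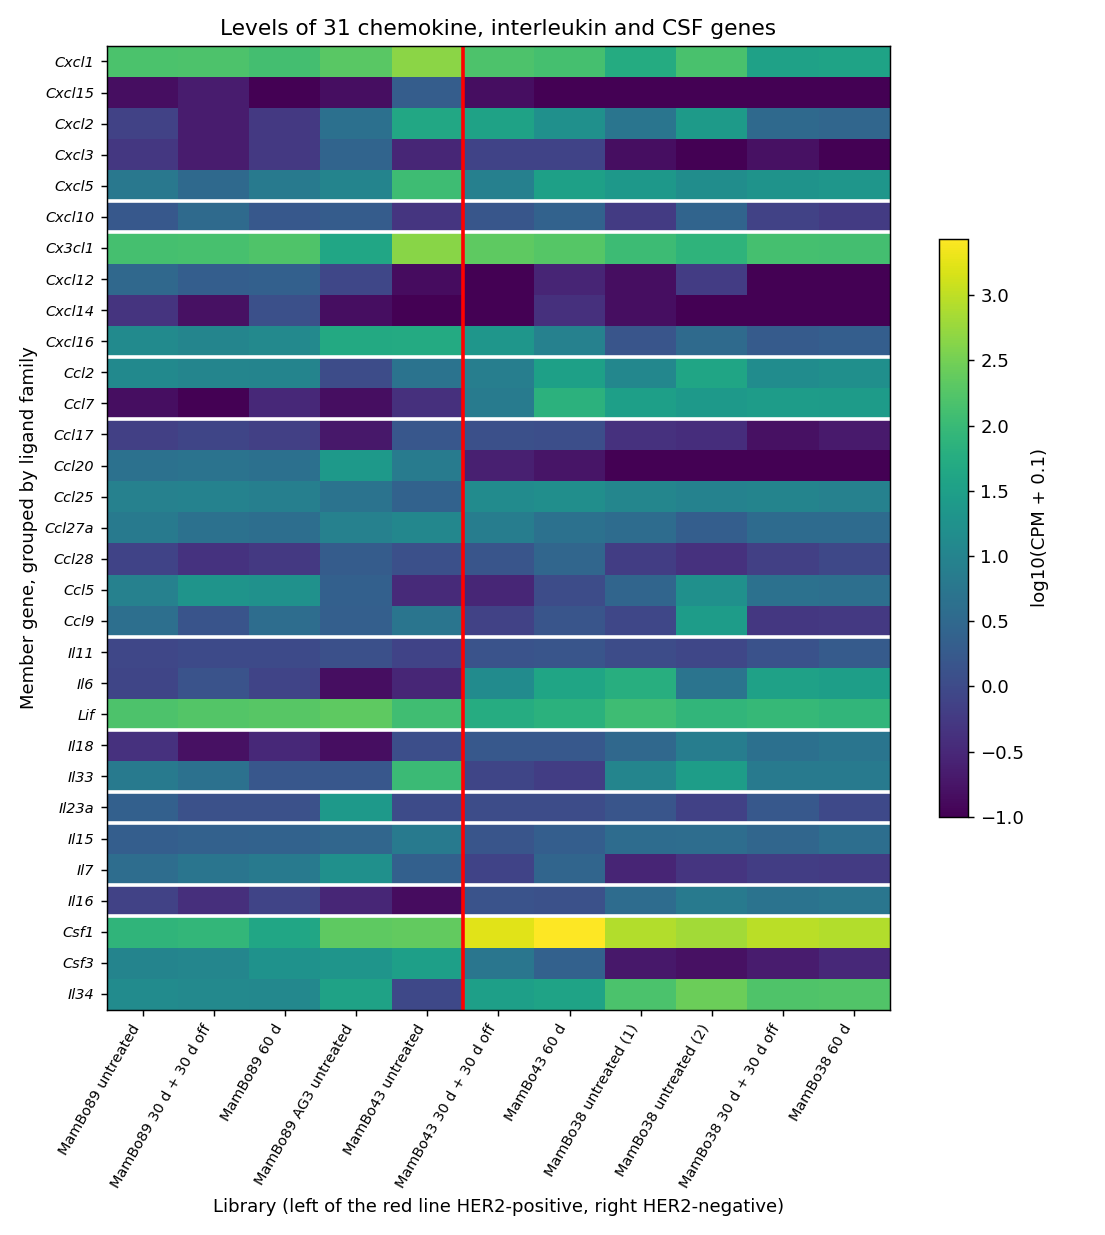
Level of each of the 31 members (rows, grouped by ligand family) in each of the 11 libraries (columns), as log10 of CPM + 0.1, with HER2-positive libraries left of the red line and HER2-negative libraries right of it. Csf1 is the brightest row on the right, up to 2720 CPM in MamBo43 TRT after 60 days, and Ccl20 is dark there, at 0 in all 4 MamBo38 libraries.

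RefSeq promoter windows around the gene start (GRCm38.p6) were at hand for 21 of the 31 members. One form of the site bound by NF-kappaB (GGGA, 2 free bases, TTCC) occurred on either strand in 7 of these 21 (33.3%), against 441 of all 27025 genes with a promoter (1.63%) and 1 of 33 members that stayed below 1 CPM. The 7 were Csf1, Cxcl1, Cxcl10, Cxcl2, Cxcl3, Il6 and Il16, the last at 1 of its 3 starts. The AP-1 letters TGANTCA were in 38.1% of the 21 and 8.97% of all genes, the C/EBP letters TTGCNNAA in 19% and 12.2%, and the ISRE letters (GAAA, 2 free bases, GAAA) in 9.52% and 3.99%. Among the 33 members below 1 CPM these shares were 15.2% for AP-1, 21.2% for C/EBP and 9.09% for ISRE. A match describes the letters only. The stretches around the NF-kappaB letters, in capitals, are shown for 5 members whose levels differed between the groups or lines described next, written 5′ to 3′ along the gene's strand in GRCm38.p6.
Csf1, chr3:107760574-107760663 (- strand): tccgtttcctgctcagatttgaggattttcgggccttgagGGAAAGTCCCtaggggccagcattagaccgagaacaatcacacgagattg
Il6, chr5:30013030-30013119 (+ strand): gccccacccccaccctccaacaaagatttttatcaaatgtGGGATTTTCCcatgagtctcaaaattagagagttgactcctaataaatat
Cxcl1, chr5:90891134-90891224 (+ strand): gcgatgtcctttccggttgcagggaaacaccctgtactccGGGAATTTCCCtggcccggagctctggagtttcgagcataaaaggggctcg
Cxcl2, chr5:90903762-90903852 (+ strand): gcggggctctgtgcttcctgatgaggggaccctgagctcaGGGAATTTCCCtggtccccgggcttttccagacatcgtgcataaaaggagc
Il16, chr7:83655494-83655584 (- strand): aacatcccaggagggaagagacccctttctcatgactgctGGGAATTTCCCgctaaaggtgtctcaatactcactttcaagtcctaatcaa
In Cxcl1, Cxcl2 and Il16 the NF-kappaB letters matched on both strands, 1 base apart, and the capitals cover both matches. Among these 5 genes, Csf1, Il6 and Il16 were higher in HER2-negative libraries and Cxcl1 was lower, a call that was lost under several alternatives. Whether the letters bear on these levels was not tested.

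The first comparison asked how cytokine transcripts differed with HER2 status, over 6 negative and 5 positive libraries. Ccl7, a chemokine for monocytes, averaged 31.5 ± 21.2 CPM (SD, n = 6) in HER2-negative and 0.126 ± 0.135 (n = 5) in HER2-positive libraries, and Csf1, a macrophage growth factor, 1290 ± 792 against 130 ± 85.0 CPM. Il6, Il34, Il16, Il18 and Ccl2 were also higher. Ccl20, Csf3, Il7, Cxcl12, Il23a, Cxcl16, Cxcl1 and Lif were lower. Less RNA per cell and fewer cells that express a gene cannot be told apart in such bulk libraries.

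Of the 31 members, 28 passed the filter on low counts and were tested, and 15 were called at an adjusted p under 0.1 with a log2 fold change of at least 1 in either direction, where 32.8% of the 12364 genes tested were called. Among them 7 were higher, with 15.8% of all genes, and 8 were lower, with 17.0%. The filter keeps a gene that is well counted in 1 group alone, so the counts are a description. The median log2 fold change was -0.37 over the tested members and -0.04 over all genes tested. The groups did not overlap in any library for 5 higher members (Ccl7, Csf1, Il6, Il16, Il18; 17.6% of all genes) and 3 lower ones (Ccl20, Csf3, Lif; 17.3%). No source says that the libraries of a group came from independent cultures, so p-values measure only the spread between these libraries.

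Of the chemokines for monocytes, Ccl7, a ligand of CCR2 and other CC receptors, stood at 31.4 and 24.4 CPM in untreated MamBo38, 27.8 and 27.5 CPM in MamBo38 with trastuzumab, and 6.91 and 70.9 CPM in MamBo43 TRT after the 30-day and 60-day schedules. In the HER2-positive libraries it had 0.314 CPM in untreated MamBo43 and between 0 and 0.220 CPM in the 4 MamBo89 libraries. Every HER2-negative library thus exceeded every HER2-positive one, and the 2 MamBo43 TRT libraries enclosed all MamBo38 values. The log2 fold change was 7.84 ± 0.84 (adjusted p = 2.94e-05). Ccl2, the main CCR2 ligand and a neighbor of Ccl7 on chromosome 11, overlapped between the groups, with 7.80 to 40.1 CPM against 0.969 to 12.4 CPM (1.39 ± 0.61, adjusted p = 0.0747), and lost its call without untreated MamBo38 replicate 2, untreated MamBo43 or MamBo43 TRT after 60 days (lowest log2 fold change 1.09). The Ccl2 difference was also not called with the tumor of origin as a covariate (2.09 ± 1.26, adjusted p = 0.244) or among untreated libraries alone (2.09 ± 1.05, adjusted p = 0.205).

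Ligands of the CSF1 receptor, which maintains macrophages, were higher as a pair. Csf1 was at 854 and 668 CPM in untreated MamBo38, 940 and 828 CPM in treated MamBo38, and 1720 and 2720 CPM in MamBo43 TRT. It was at 230 CPM in untreated MamBo43, 212 in AG3, 78.9 in untreated MamBo89 and 87.3 and 42.4 in treated MamBo89, all below the HER2-negative libraries (3.30 ± 0.55, adjusted p = 0.000527). Il34, the other ligand of that receptor, was at 151 to 273 CPM in MamBo38 and 31.7 and 37.1 CPM in MamBo43 TRT, against 11.7 to 36.3 CPM in MamBo89 and AG3 and 0.824 CPM in untreated MamBo43 (3.21 ± 0.83, adjusted p = 0.00739). Its groups overlapped only through AG3, which lay between the 2 MamBo43 TRT libraries. The receptor gene itself, Csf1r, had at most 0.0764 CPM in any library.

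Csf3, which encodes the granulocyte growth factor G-CSF, ran the other way. It was at 31.7 CPM in untreated MamBo43, 20.1 in AG3, 9.76 in untreated MamBo89 and 10.6 and 18.2 in treated MamBo89. It had 5.35 and 2.33 CPM in MamBo43 TRT and 0.0558 to 0.225 CPM in the 4 MamBo38 libraries (1, 2, 2 and 6 counts), for a log2 fold change of -3.72 ± 1.07 (adjusted p = 0.0127). The MamBo43 TRT libraries lay between the HER2-positive libraries and MamBo38. The study reports some remaining HER2-positive cells in its treated MamBo43 culture, and their part was not tested.

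IL-6, a cytokine that signals through gp130, was also measured as a protein by the study. Its transcript Il6 was at 59.3 and 4.97 CPM in untreated MamBo38, 34.5 and 30.9 CPM in treated MamBo38 and 13.5 and 39.8 CPM in MamBo43 TRT. It was at 0.196 CPM in untreated MamBo43, 0.0485 in AG3, 0.737 in untreated MamBo89 and 1.28 and 0.716 in treated MamBo89. No library of either group reached the range of the other, the nearest values being 4.97 and 1.28 CPM (5.69 ± 0.85, adjusted p = 0.000242). Lif, a cytokine of the same family, was at 113, 82.2, 91.9 and 81.9 CPM in MamBo38 and 56.5 and 68.1 CPM in MamBo43 TRT, below 120 CPM in untreated MamBo43, 214 in AG3, 157 in untreated MamBo89 and 174 and 194 in treated MamBo89. The difference was near the limit for a call (-1.06 ± 0.19, adjusted p = 0.000871), and without AG3 or MamBo43 TRT after the 30-day schedule the fold change fell under it. Lif was also not called with the tumor of origin as a covariate (-0.54 ± 0.29, adjusted p = 0.194) or among untreated libraries alone (-0.72 ± 0.32, adjusted p = 0.163). Il11, the third IL-6 family member at 1 CPM, was not called (0.50 ± 0.29, adjusted p = 0.162).

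Il18, an IL-1 family cytokine that drives interferon-gamma production, was at 2.99, 7.53, 4.17 and 5.10 CPM in MamBo38 and at 1.57 CPM in both MamBo43 TRT libraries. It was at 1.06 CPM in untreated MamBo43 and between 0.0485 and 0.322 CPM in MamBo89 and AG3 (3.42 ± 0.78, adjusted p = 0.00365), so untreated MamBo43 lay close to its TRT derivatives. Il16, a ligand of CD4 that attracts T cells, was at 3.61, 6.25, 4.71 and 5.47 CPM in MamBo38 and 1.27 and 1.15 CPM in MamBo43 TRT, against 0.0392 to 0.716 CPM in the HER2-positive libraries (3.30 ± 0.71, adjusted p = 0.00265). The 2 genes therefore shared the order MamBo38, then MamBo43 TRT, then the HER2-positive libraries. Il16 overlaps Stard5 and another antisense gene over 15.3% of its exon length, and reads were not assigned by strand, so its values are uncertain to that extent.

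Of the chemokines that fell, Ccl20, the ligand of CCR6 on dendritic and T cells, had 0 counts in all 4 MamBo38 libraries and 3 and 2 counts in MamBo43 TRT. It was at 6.82 CPM in untreated MamBo43, 25.2 in AG3, 4.47 in untreated MamBo89 and 4.84 and 4.29 in treated MamBo89. All 5 HER2-positive libraries were well above the floor and no HER2-negative library was (adjusted p = 7.16e-05); the fitted log2 fold change of -7.68 depends on the prior count. Cxcl12, the ligand of CXCR4, was at 0 to 0.502 CPM against 1.98 to 2.99 CPM in the 3 MamBo89 libraries, 0.775 in AG3 and 0.0392 in untreated MamBo43 (-3.65 ± 1.12, adjusted p = 0.0179). Untreated MamBo43 lay within the HER2-negative range of Cxcl12, and the direction turned with the tumor of origin as a covariate (1.48 ± 2.16) and within tumor B (1.46 ± 2.6), neither called, and the call was lost among libraries that share a number in their name (-2.75 ± 1.36) and among untreated ones (-2.18 ± 1.77). Cxcl16, a ligand of CXCR6, fell by 2.09 ± 0.79 on the log2 scale (adjusted p = 0.0446), with an antisense overlap with Zmynd15 over 18.3% of its exon length, and was no longer called without AG3, with that number as a covariate (-1.30 ± 0.72) or within tumor B (-3.04 ± 1.21). Cxcl1, a CXCR2 ligand that attracts neutrophils, fell by 1.23 ± 0.49 (adjusted p = 0.0534), a call that was lost without untreated MamBo43 (-0.78) or untreated MamBo38 replicate 1 (-1.11), with the library number as a covariate (-0.60 ± 0.38, adjusted p = 0.233) and among untreated libraries alone (-1.46 ± 0.66).

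Among the other interleukins, Il7, which sustains lymphocytes, was at 0.193 to 2.67 CPM in HER2-negative and 2.16 to 17.0 CPM in HER2-positive libraries (-3.04 ± 0.72, adjusted p = 0.00459). Il23a, which encodes the p19 subunit of IL-23, was at 24.3 CPM in AG3 and between 0.614 and 2.21 CPM in all others, so the call (-2.48 ± 0.87, adjusted p = 0.0321) rested on that 1 library, and without it the fold change was -0.34. The members tested but not called were Il15, Il33, Il11, Cxcl10, Cxcl2, Cxcl5, Cx3cl1, Ccl5, Ccl9, Ccl17, Ccl25, Ccl27a and Ccl28. Of these, Cxcl2 (0.53 ± 1.28) turned on untreated MamBo43, without which it was called higher (3.46 ± 1.11, adjusted p = 0.0216). Cxcl3, Cxcl14 and Cxcl15 did not pass the filter. Of Ccl27a, 33.3% of its 75-base windows also occurred in other genes, Ccl27b among them, so its counts are uncertain.

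**Figure D2:**
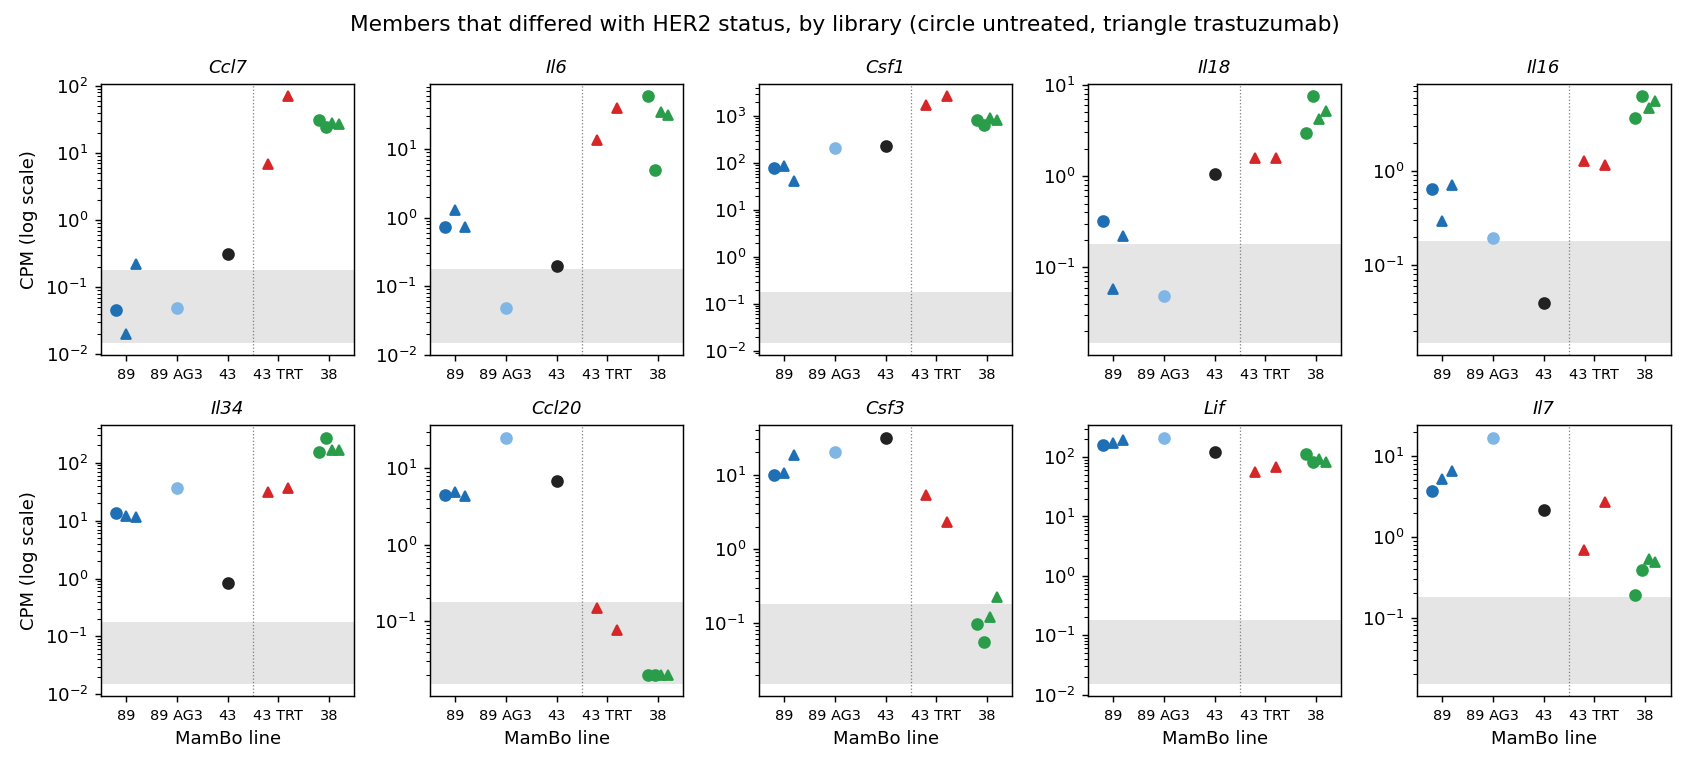
CPM (log axis) in each library for 10 of the 15 called members, one panel each, with line on the x axis, HER2-positive libraries left of the dotted line, circles for untreated and triangles for trastuzumab-treated libraries. Gray marks values at or under 3 counts, and libraries with 0 counts are drawn at 0.02 inside it. Ccl7, Il6, Csf1, Il18 and Il16 sit higher to the right in every library, and Ccl20, Csf3 and Lif lower.

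Tumor of origin and HER2 status are partly joined in these libraries, since 4 of 5 HER2-positive libraries stem from tumor A. Within tumor B, the 6 HER2-negative libraries against untreated MamBo43 gave 12 called members, where 24.9% of all genes were called, and 8 of the 12 were called in the same direction as with all libraries. With the tumor as a covariate 14 were called (26.5% of all genes), 9 of them in the same direction. Ccl2, Lif, Il18, Il7, Cxcl12 and Il23a lost their call in both fits, Cxcl16 within tumor B as well, and Ccl25, Cx3cl1 and Cxcl5 were called in both. The MamBo38 libraries other than untreated replicate 2 also carry another number in their library name than all the rest. The libraries that share a number gave 11 called members, 7 higher and 4 lower (28.6% of all genes), without Cxcl1, Cxcl12, Cxcl16 and Il23a, and the rest are of MamBo38 alone. With the number as a covariate 13 were called (30.4%), without Cxcl1 and Cxcl16.

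Mesenchymal and epithelial markers moved with HER2 status too. All 5 tested of the 7 fibroblast and mesenchymal markers were called higher, and the list summed to 1440 to 2510 CPM in HER2-negative and 36 to 238 CPM in HER2-positive libraries. Of the 7 epithelial markers 5 were tested, with 0 higher and 2 lower. Cdh1 and Epcam, the epithelial adhesion genes, were lower by 4.30 ± 1.47 and 4.34 ± 1.74 on the log2 scale, while the keratin genes Krt8 (-3.02 ± 1.83), Krt18 (-2.28 ± 1.71) and Krt14 (0.83 ± 1.82) were not called. The list summed to 1.25 to 1750 CPM in HER2-negative and 2320 to 3720 CPM in HER2-positive libraries. The part of these differences in the cytokine values was not tested.

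The genes that receive or limit these signals changed in both directions, and their counts are read against the 15.8% of all genes called higher and 17.0% called lower. Of 38 cytokine receptor genes 23 were tested, with 9 higher and 8 lower. The largest rise was in Il1rl1, the receptor of IL-33, with 452, 546, 270 and 277 CPM in MamBo38 and 33.1 and 48.3 CPM in MamBo43 TRT against 0.549 CPM in untreated MamBo43 and at most 0.0551 CPM in MamBo89 and AG3 (10.88 ± 1.28, adjusted p = 5.31e-05). Il2rb and Il2rg, chains of the IL-2 and IL-15 receptors, rose by 5.34 ± 0.83 and 4.91 ± 1.16. Il2rg was at 6.08 to 7.99 CPM in MamBo38, but at 0.441 and 0.764 CPM in MamBo43 TRT against 0.63 CPM in AG3. Its call was lost with the tumor of origin as a covariate. Il6st, which encodes gp130, was at 365 to 710 CPM against 85.4 to 197 CPM (1.78 ± 0.24, adjusted p = 0.000117), while Lifr, its partner for LIF, fell by 2.94 ± 0.43. Lower by more were Csf2ra, a chain of the GM-CSF receptor (-4.02 ± 1.19), Il20rb (-3.53 ± 0.51) and Il18r1, a chain of the IL-18 receptor (-3.48 ± 1.37). The Il18r1 call was lost with the tumor of origin as a covariate and among libraries that share a number in their name.

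Only 2 of 22 chemokine receptor genes passed the filter of this comparison. Ccr10 was higher (1.85 ± 0.45), a call that was lost with the tumor of origin as a covariate. Cxcr4, the receptor of CXCL12, was not tested. It was at 2.63, 2.16 and 4.95 CPM in MamBo89, 0.727 in AG3 and at most 0.0392 in the MamBo43 and MamBo38 libraries. Ackr4, also not tested, was at 1.84 to 5.78 CPM in MamBo89 and AG3 and at most 0.223 CPM elsewhere. Cxcr2 and Ccr2, receptors of the CXCL1 and CCL2 groups, reached at most 0.167 and 0 CPM. Of 7 antagonists and decoys 4 were tested. Il1rn, the IL-1 receptor antagonist, fell by 4.19 ± 1.3 and Il18bp, the IL-18 binding protein, by 1.09 ± 0.34 (0.22 with the tumor of origin as a covariate), and Il1rl2, which encodes the IL-36 receptor and not an antagonist, rose by 6.52 ± 0.91. Of 19 NF-kappaB and C/EBP regulators, all tested, Nfkbib was higher (1.29 ± 0.16) and Zc3h12a, Zfp36, Nfkbia and Cebpb were lower. The calls of Zfp36 and Nfkbia were lost with any of several libraries left out, the fold changes ranging from -1.14 to -0.91 and from -1.33 to -0.91, and that of Cebpb turned to 0.02 with the tumor as a covariate. Zc3h12a, which encodes an RNase that degrades cytokine transcripts such as Il6, had the largest fall, 2.80 ± 0.24 (adjusted p = 7.36e-06). Of 12 further ligands, Mif (1.48 ± 0.18), Clcf1, Kitl and Flt3l were higher and Tnf (-3.15 ± 0.88), Ctf1 (-3.04 ± 0.22) and Tslp were lower. Kitl kept its call in 4 of 11 fits with a library left out and Tslp in 2 of 9, and Tslp was at 1.39 with the tumor as a covariate. Flt3l lost its call with the tumor or the library number as a covariate, among libraries that share that number and among untreated ones.

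The next comparison followed tumor B cells as they lost HER2 in culture, with the 2 MamBo43 TRT libraries against untreated MamBo43. Ccl7, Il6, Il34, Il16, Csf1, Ccl25 and Ccl2 were higher after trastuzumab, and Il33, Cxcl15, Ccl20, Csf3, Cxcl5, Il15, Cxcl16, Cxcl1 and Cx3cl1 were lower. The Ccl2 call (2.09 ± 0.92, adjusted p = 0.0904) was lost without the 60-day library (0.72 ± 0.77) and in a fit of the 3 libraries alone (2.10 ± 1.01). Of the 31 members, all tested, 16 were called, where 33.2% of 13782 genes were called, with 7 higher (15.3% of all genes) and 9 lower (17.8%). The 1 untreated library has no replicate, and the spread was taken from all 11 libraries. These libraries also enter the comparison by HER2 status.

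Il33, an alarmin of the IL-1 family stored in the nucleus of epithelial and stromal cells, changed most. It was at 107 CPM in untreated MamBo43 and at 0.736 and 0.535 CPM in MamBo43 TRT (-7.39 ± 1.06, adjusted p = 0.000497). MamBo38 lay between, with 10.5, 28.9, 6.32 and 6.45 CPM, and MamBo89 and AG3 had 1.49 to 6.36 CPM. Both TRT cultures were thus below all other libraries, while Il1rl1, the receptor of this ligand, was higher there than in untreated MamBo43 by 6.20 ± 0.68. Il6 rose by 7.05 ± 1.71 (adjusted p = 0.00832) and Ccl7 by 6.94 ± 1.48 (adjusted p = 0.00434), with the values given before. Il34 rose from 0.824 CPM to 31.7 and 37.1 CPM (5.38 ± 0.47), and Csf1 from 230 CPM to 1720 and 2720 CPM (3.27 ± 0.47).

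Ccl25, a ligand of CCR9, rose from 2.35 CPM to 13.6 and 15.5 CPM (2.63 ± 0.28, adjusted p = 9.37e-05). Among the ELR CXC chemokines, which attract neutrophils through CXCR2, Cxcl5 went from 112 to 8.39 and 32.6 CPM (-2.44 ± 0.59) and Cxcl1 from 453 to 156 and 134 CPM (-1.64 ± 0.67). The Cxcl1 call was lost when either TRT library was left out (adjusted p = 0.12 and 0.192). Cxcl15 went from 1.96 CPM to 1 and 0 counts, while Cxcl2, at 45.9 CPM before and 35.5 and 16.7 CPM after, was not called. Cxcl3 went the other way, from 0.196 CPM to 0.687 and 0.688 CPM, and was not called (1.78 ± 0.91). Il15, which supports NK and memory T cells, fell by 1.87 ± 0.34. Cx3cl1, the membrane-bound ligand of CX3CR1, fell by 1.13 ± 0.28. The 6 tested mesenchymal markers were called higher in this comparison as well. Of 6 tested epithelial markers Cdh1 and Epcam were called lower and Krt14 (4.66 ± 1.46, adjusted p = 0.0266) and Krt5 higher, the latter from 0 CPM to 0.049 and 3.82 CPM. The part of these markers was not tested.

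**Figure D3:**
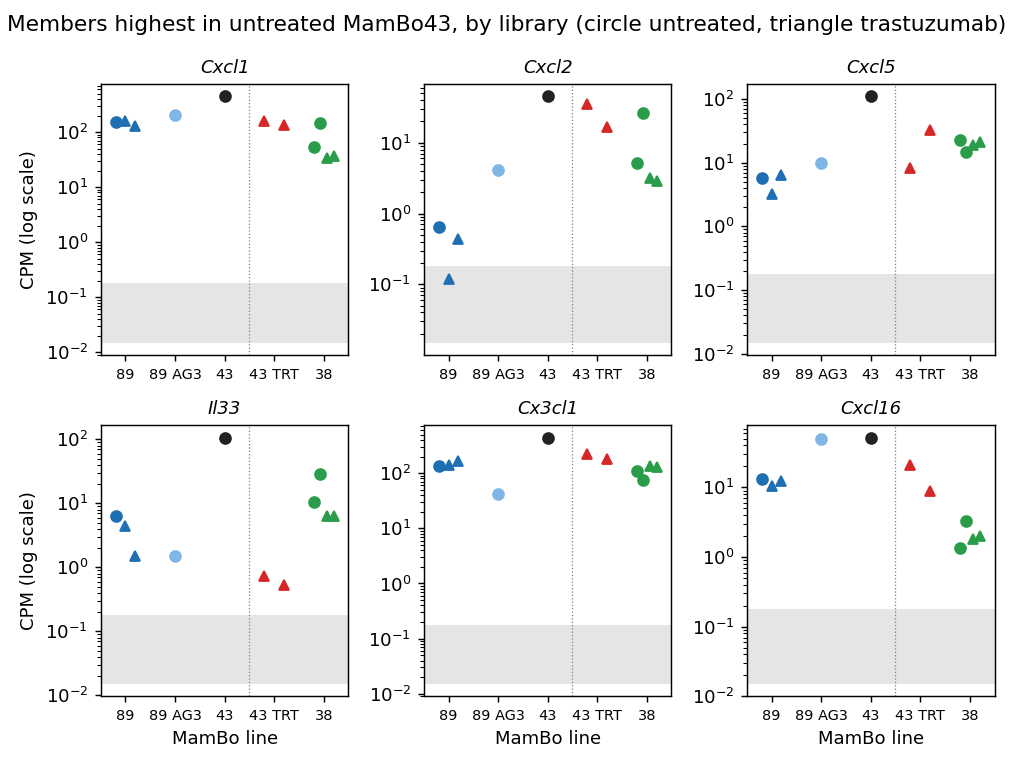
CPM (log axis) in each library for 6 members, with line on the x axis, HER2-positive libraries left of the dotted line, circles for untreated and triangles for trastuzumab-treated libraries, and gray for values at or under 3 counts. Untreated MamBo43 is the highest library in each panel, and Il33 drops from 107 CPM there to 0.736 and 0.535 CPM in MamBo43 TRT.

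**Figure D4:**
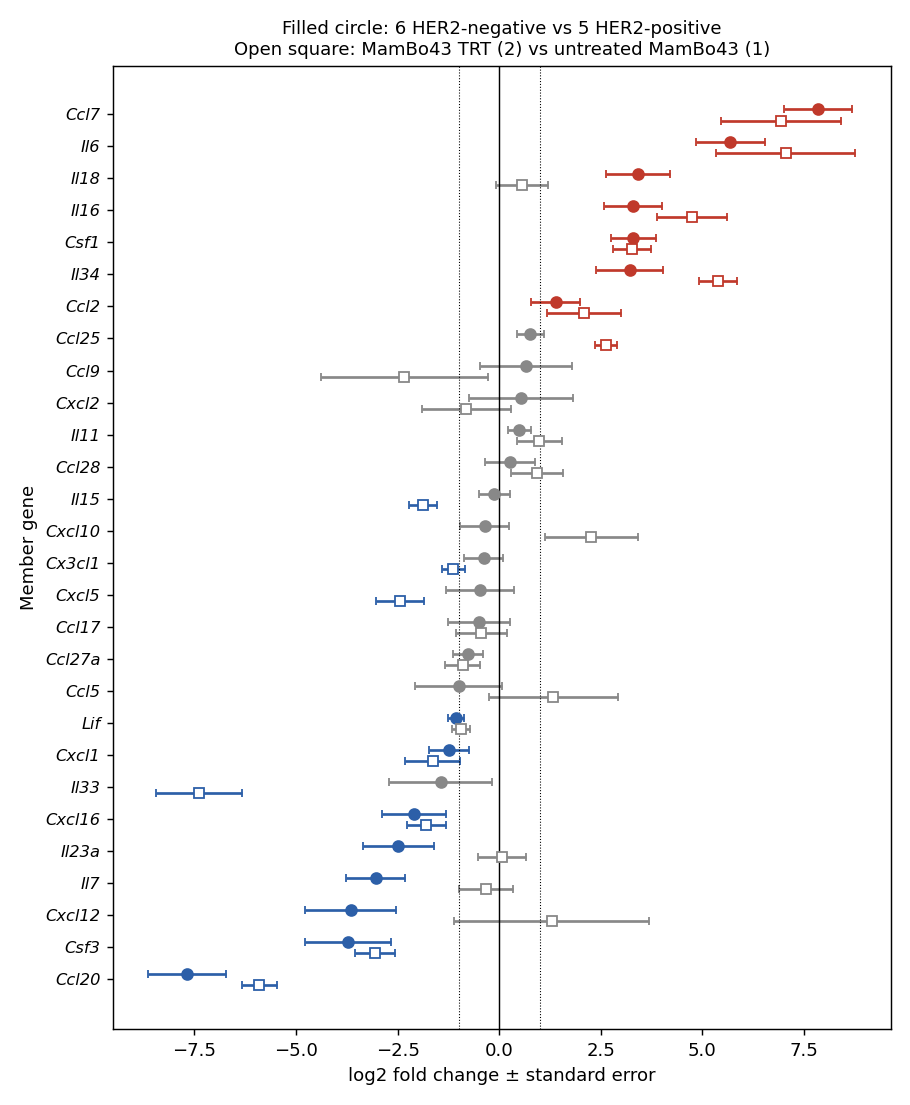
Log2 fold change with its standard error for the 28 members tested in the HER2-negative against HER2-positive comparison (filled circles) and the same genes in MamBo43 TRT against untreated MamBo43 (open squares), red for called higher, blue for called lower and gray for not called. The comparisons share libraries; Il33 differs most between them, at -1.44 and -7.39.

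HER2-negative cells obtained in culture were then set against the line from a HER2-negative tumor, with MamBo43 TRT (2) against MamBo38 (4). Csf3, Cxcl3, Cxcl16 and Ccl17 were among the genes higher in MamBo43 TRT, and Il33 and Il18, both described members of the IL-1 family, were lower. Of the 31 members 15 were called, where 22.7% of 13782 genes were called, with 9 higher (11.2% of all genes) and 6 lower (11.5%). Csf3, at the values above, was higher by 4.78 ± 0.51 (adjusted p = 0.000106). Cxcl3, a CXCR2 ligand, was at 0.687 and 0.688 CPM in MamBo43 TRT and at 0 or 1 count in the MamBo38 libraries (adjusted p = 0.00169), and in the HER2-positive libraries it was at 0.196 CPM in untreated MamBo43, 2.62 in AG3, 0.415 in untreated MamBo89 and 0.117 and 0.440 in treated MamBo89. Il33 was lower by 4.36 ± 0.90 (adjusted p = 0.00384).

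The others called higher were Cxcl16 (2.84 ± 0.36), Ccl17, a CCR4 ligand (2.45 ± 0.51), Il7 (2.07 ± 0.54), Ccl28 (1.85 ± 0.44), Csf1 (1.43 ± 0.27), Cxcl1 (1.11 ± 0.48) and Ccl20, whose counts were at or under the floor in both lines. Cxcl1 kept its call in 1 of 6 fits with a library left out and lost it with DESeq2 (adjusted p = 0.13) and in a fit of the 6 libraries alone (adjusted p = 0.141). Without the 60-day MamBo43 TRT library Il7 (0.77 ± 0.56) and Ccl28 (1.23 ± 0.54) were not called. Lower were Ccl5 (-3.53 ± 0.93), Il34 (-2.46 ± 0.25), Il16 (-2.05 ± 0.37), Il18 (-1.65 ± 0.45) and Il15 (-1.05 ± 0.27), the last not called without the 30-day MamBo43 TRT library or the 60-day MamBo38 library, its fold change then being as low in size as -0.79. Ccl7, Ccl2 and Il6 did not pass the test (0.49 ± 0.63, -0.01 ± 0.58 and -0.28 ± 0.72). The 2 MamBo43 TRT libraries lay on either side of MamBo38 for Ccl7. Without the 60-day library Ccl7 was called lower (-2.01 ± 0.40, adjusted p = 0.0059), and without the 30-day library it was called higher (1.36 ± 0.28, adjusted p = 0.00647). With 1 library each, schedule and culture cannot be told apart. The 6 tested epithelial markers were called higher in MamBo43 TRT, and their part was not tested.

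Untreated cells of both tumors, all HER2-positive, were compared as MamBo43 (1) against MamBo89 and AG3 (2). Of 29 members tested 5 were called, where 7.40% of 12867 genes were called, with 4 higher (4.87% of all genes) and 1 lower (2.53%). Il33 was at 107 CPM in MamBo43 against 6.36 and 1.5 CPM (4.78 ± 0.63, adjusted p = 0.000112), and Cxcl2 at 45.9 CPM against 0.645 and 4.17 CPM (4.26 ± 0.82, adjusted p = 0.00342). Il34 was at 0.824 CPM against 13.7 and 36.3 CPM (-4.91 ± 0.94, adjusted p = 0.00334). In each case MamBo43 lay outside both MamBo89 libraries. Cxcl5 (3.84 ± 0.50) and Cx3cl1 (2.36 ± 0.55) were also higher. The fit has 1 residual degree of freedom, and with the spread taken from all 11 libraries 17 members were called, where 22.9% of all genes were. The control of that wider fit also held the trastuzumab-treated MamBo89 libraries.

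Trastuzumab treatment was examined in the lines that did not change HER2 status. In each line 1 of the treated libraries had been 30 days without the drug, so treated and withdrawn cultures were pooled. In MamBo89, edgeR called 0 of 26 members and 0 of 12046 genes, and 4 members had an unadjusted p under 0.05, as had 1.54% of all genes: Cxcl2 (-3.10 ± 1.17), Il23a (-3.54 ± 1.10), Ccl5 (1.76 ± 0.63) and Cxcl16 (-1.47 ± 0.61). In MamBo38 it called 0 of 23 members and 0 of 11861 genes, and Cxcl1 (-1.45 ± 0.46), Cxcl2 (-2.35 ± 0.76), Il33 (-1.62 ± 0.48) and Ccl9 (-4.99 ± 1.69) had an unadjusted p under 0.05, as had 4.24% of all genes. DESeq2 called 0 members in either line. In both lines 1 untreated library set these values. With AG3 as the only untreated MamBo89 library 15 members were called, where 18.4% of all genes were, and with replicate 2 as the only untreated MamBo38 library 8 were (8.73% of all genes). The first then sets a library read as a clone against the MamBo89 cultures, and the second a library with another number in its name than the treated MamBo38 libraries, so neither can be told apart from the treatment.

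The difference of the responses to trastuzumab between lines was tested directly in a fit of all 11 libraries. Against MamBo89, 10 of 31 members differed, where 22.2% of all genes did, among them Il34 (difference of log2 fold changes 5.60 ± 0.55, adjusted p = 0.00171), Csf1 (3.56 ± 0.63) and Il33 (-6.29 ± 1.08). Against MamBo38, 12 of 31 differed, where 25.2% of all genes did, among them Il34 (5.72 ± 0.52), Il6 (7.02 ± 2.08) and Ccl7 (6.94 ± 1.80). Both rest on the 1 untreated MamBo43 library. Every contrast with MamBo89 also rests on 1 untreated MamBo89 library, since AG3 was fitted apart. Between MamBo38 and MamBo89, edgeR called 0 of 31 members and 0 of 13782 genes, and 0 members and 1.57% of all genes had an unadjusted p under 0.05.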

How the data were processed

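RNA of 11 cultures of MamBo cells was sequenced. Per the study's methods, libraries were made with a TruSeq kit that keeps no strand, read over 75 nucleotides, aligned with STAR 2.5 and counted with RSEM 1.3.0. The submitters' processing notes name the build mm10. The values that the authors deposited are expected counts without normalization; all were whole numbers.

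CPM are counts over TMM-scaled library sizes. Genes were kept by filterByExpr (minimum count 10, minimum total 15) and tested with the quasi-likelihood test of edgeR 4.0.16 in R 4.3.3 (glmQLFit, glmQLFTest), with Benjamini-Hochberg adjustment over all genes tested. The threshold for a call was 0.1 for the adjusted p together with a log2 fold change of at least 1 in size. Errors of log2 fold changes are the fold change over the square root of F. HER2-negative against HER2-positive libraries were fitted without covariates, MamBo43 TRT against untreated MamBo43 and against MamBo38 in a fit of all 11 libraries, and the other comparisons on their own libraries. At 17040454 to 27127662 counts per library, the number of libraries limits most comparisons, and the detection floor (3 counts) includes no error beyond counting. Positions and overlaps come from GENCODE M21 on GRCm38, promoters from RefSeq.

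All described members are named. Values by library, or ranges over the libraries of a line or group, are given for called members whose groups did not overlap and for Il6. The same holds for the 3 largest called changes in each other comparison. Others are given as ranges or where a result turns on them. For gene lists of the pathway, values were given for up to 3 of the largest changes in each direction. The members and lists were chosen with earlier results of these data known. On simulated counts with 200 genes changed 8-fold, the fit of HER2-negative against HER2-positive libraries called 90.5% of them and 14 of the unchanged genes among 12247 tested. The changed genes were drawn from those above 1 CPM. Simulated libraries were independent and carried no difference between tumors. In the data 32.8% of genes were called, so these shares need not hold there. Alternatives were DESeq2 1.42.0, other filters, scaling, thresholds and covariates, subsets of libraries, and leaving out each library; the fit within tumor B was added after the data were seen.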

Additional observations from a re-analysis of the deposited data

Results flagged for a closer look

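Some libraries stood apart from the rest of their group by Dixon's criterion, in 26 of 91 tests of a gene within a group. The cut-offs flag about 1 in 20 by chance only for normally distributed values. CPM in these small groups were not shown to be so distributed, so the 26 cannot be read against that rate. A single count in a group otherwise without counts is always flagged. The tests share libraries and genes, and the cause was not tested. Untreated MamBo43 was the only HER2-positive library from tumor B, and the part of that origin in its flags was not tested. Among the 5 HER2-positive libraries, untreated MamBo43 stood apart for 7 members, with 453 CPM of Cxcl1, 112 CPM of Cxcl5, 107 CPM of Il33, 45.9 CPM of Cxcl2, 6.28 CPM of Il15, 1.96 CPM of Cxcl15 and 1.06 CPM of Il18. AG3 stood apart for 3, with 25.2 CPM of Ccl20, 24.3 CPM of Il23a and 2.62 CPM of Cxcl3.

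Among the 4 MamBo38 libraries, untreated replicate 2, the only one of them whose library number is that of the other lines, stood apart for 9 members. It had 273 CPM of Il34, 144 CPM of Cxcl1, 40.1 CPM of Ccl2, 27.7 CPM of Ccl9, 26.0 CPM of Cxcl2, 17.0 CPM of Ccl5, 2.62 CPM of Cxcl10 and 0.502 CPM of Cxcl12, all above the other 3 libraries, and 2.01 CPM of Ccl27a, below them. Among the 6 HER2-negative libraries it also stood apart for Ccl9 and Ccl5 at the same levels, and for Il33 at 28.9 CPM. In that group MamBo43 TRT after 60 days stood apart for Il7 at 2.67 CPM and Cxcl14 at 0.306 CPM. At the level of a single count, MamBo43 TRT after 30 days stood apart for Cxcl15 at 0.049 CPM and untreated MamBo38 replicate 1 for Cxcl14 at 0.0482 CPM, which no depth here can tell from 0.

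The response to trastuzumab differed between lines in a test of the difference of log2 fold changes. For MamBo43 minus MamBo89 it was 5.60 for Il34, 5.10 for Il16, 3.56 for Csf1, 2.66 for Ccl25, -1.16 for Lif, -1.31 for Cx3cl1, -2.08 for Il15, -3.60 for Csf3, -5.93 for Ccl20 and -6.29 for Il33. For MamBo43 minus MamBo38 it was 7.02 for Il6, 6.94 for Ccl7, 5.72 for Il34, 4.70 for Il16, 3.70 for Cxcl10, 3.05 for Csf1, 2.73 for Ccl25, -1.62 for Cx3cl1, -1.78 for Il15, -2.55 for Cxcl5, -4.23 for Csf3 and -5.77 for Il33. Both differences use the 1 untreated MamBo43 library, and the first also uses only 1 untreated MamBo89 library, since AG3 was fitted apart.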

How the results depend on the processing

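The count of 15 members called by HER2 status stayed between 11 and 16 under every alternative but one: requiring 10 or more counts in each library left 15 members to test, of which 7 were called (25.3% of all genes). Leaving out each library in turn gave 12 to 15, and the fit within tumor B gave 12. Ccl7, Csf1, Il6, Il16, Il34, Ccl20 and Csf3 were called under each alternative that could test them. With the tumor of origin as a covariate, the direction turned for Il23a (0.17), Cxcl12 (1.48), Tslp (1.39), Cebpb (0.02) and Il18bp (0.22), none of them then called, and within tumor B for Il23a (0.15) and Cxcl12 (1.46). With 1 library left out, Ccl9 ranged from -2.15, called lower without untreated MamBo38 replicate 2, to 0.91, Cxcl2 from 0.04 to 3.46, called higher without untreated MamBo43, and Cxcl5 from -0.77 to 1.64, called higher without untreated MamBo43. For MamBo43 TRT against untreated MamBo43 the count of 16 became 16 to 17, and 16 when either TRT library was left out, although the members changed: Cxcl1 lost its call and Ccl27a gained one without the 30-day library, and Cxcl1 and Ccl2 lost theirs and Il7 and Lif gained one without the 60-day library; against MamBo38 the count of 15 became 13 to 17, also over the libraries left out, and Cxcl5 ranged from -1.21 to 0.76 and Ccl7 from -2.01 to 1.36, both called lower without the 60-day library, and Ccl7 higher without the 30-day one. For untreated MamBo43 against MamBo89 and AG3, the count of 5 became 8 with DESeq2 (7.86% of all genes), 9 without a filter (7.96%), and 17 in a fit of all 11 libraries, both with AG3 included in the control (22.9%) and without it (24.5%). In both fits of all 11 libraries the control also held the trastuzumab-treated MamBo89 libraries. For trastuzumab, leaving out each library gave 0 to 15 called members in MamBo89 and 0 to 8 in MamBo38. The cause of these changes was not tested. No paired analysis was run. The labels give no replicate numbers that groups share, although the treated libraries of all lines share the same schedules. Leaving out a library of the 3 in the comparison of untreated lines gave no test, since no residual degree of freedom was left. In place of 31 members at 1 CPM, 34 reached 0.5 CPM and 27 reached 2 CPM.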

Other observations

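Receptor genes also differed between both kinds of HER2-negative cells, MamBo43 TRT (2) against MamBo38 (4). Of 24 cytokine receptor genes tested, 4 were higher, where 11.2% of all genes were, and 8 lower, where 11.5% were. Il18r1, a chain of the IL-18 receptor, was at 6.52 and 1.87 CPM in MamBo43 TRT and at 0 or 1 count in MamBo38 (adjusted p = 8.28e-05), and Il18rap, the other chain, was lower by 2.44 ± 0.37 on the log2 scale (adjusted p = 0.000745). Il1rl1 was lower by 3.24 ± 0.35 and Il2rg by 3.48 ± 0.39. Il1rn, the IL-1 receptor antagonist, was at 2.16 and 3.32 CPM in MamBo43 TRT and at 0 or 1 count in MamBo38 (adjusted p = 6.20e-05). Ackr3, an atypical receptor that takes up CXCL12, was at 17.4 to 25.3 CPM in the 3 MamBo43 libraries, 5.97 to 7.01 CPM in MamBo38 and 0.292 to 0.678 CPM in MamBo89 and AG3.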
